A study of Mus musculus with 2 samples.

Results

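The 10 genes described here encode sensors of microbial products and the proteins that work directly with them: the Toll-like receptors Tlr2, Tlr3, Tlr4, Tlr5 and Tlr9, the lipopolysaccharide cofactors Cd14 and Ly96, the adaptor Myd88, and the cytosolic receptors Nod1 and Nod2. They were taken by symbol from the gene tables, where all 10 were found among 21474 protein-coding genes. The intestine of healthy B6NCrl mouse embryos was taken at embryonic day 16.5 and its total RNA, selected for lengths above 200 nt, was sequenced. The labels name neither a genetic change nor a treatment. They form a single group of 2 libraries, called replicate 1 and replicate 2. The input of a library was 10 ng of RNA from intestines pooled over embryos of both sexes. Replicate 2 was pooled from 41 embryos, and for replicate 1 the labels state no number. Both pools carry the same donor identifier, so the spread between libraries may be partly technical.

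Toll-like receptors bind conserved microbial molecules, at the cell surface for lipoproteins, lipopolysaccharide and flagellin and inside endosomes for nucleic acids. Most of them signal through Myd88, whereas Tlr3 uses the adaptor Ticam1 and Tlr4 can use both. Nod1 and Nod2 bind fragments of bacterial peptidoglycan in the cytosol and signal through the kinase Ripk2. In the intestine these receptors are found on epithelial cells, stromal cells and macrophages, and in mice epithelial Tlr3 is known to rise around weaning.

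The libraries held 42040766 and 41480301 expected counts, which are estimated reads. Protein-coding genes took 94.3% of them in replicate 1 and 94.5% in replicate 2. Levels are given in TPM, which corrects for transcript length, as the value in each library or as mean ± SD (n = 2). Cell type markers were counted by a rule of 1 TPM in both libraries, which 62.0% of all protein-coding genes met. Such counts alone do not identify a tissue. All 8 epithelial markers, all 6 mesenchymal, all 4 smooth muscle, all 5 endothelial, all 5 enteric neuron and glia and all 4 mesothelial markers reached a TPM of 1 in both libraries. So did all 12 macrophage and myeloid markers, at a median of 14.6 ± 0.84 TPM, and 5 of 6 neutrophil, 1 of 7 lymphoid and 1 of 5 dendritic cell markers. In bulk tissue, fewer cells of a type and less RNA per cell cannot be told apart.

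In TPM, the receptors were low in the fetal gut, and the shared adaptor Myd88 and the cofactor Ly96 stood above them. For Ly96, whose transcript is short, this rests on length correction: in counts scaled to library size without length it averaged 7.35, below Nod1 at 11.93 and Tlr5 at 7.74, while Myd88 stayed highest at 40.25. Detection required 1 TPM or more in each library, and 6 of the 10 genes met it: Myd88, Ly96, Nod1, Tlr5, Cd14 and Tlr2. Of all protein-coding genes, 62.0% met the same rule. The median level of the 10 genes was 1.965 TPM in replicate 1 and 1.97 TPM in replicate 2. That of all protein-coding genes was 4.46 TPM in replicate 1 and 4.44 TPM in replicate 2. The 10 genes covered a wide range: among the 17672 protein-coding genes with any count, Myd88 stood above 73.6% and Ly96 above 65.0%, while Nod1 stood above 38.2%, Tlr4 above 23.3% and Tlr9 above 4.32%.

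**Figure D1:**
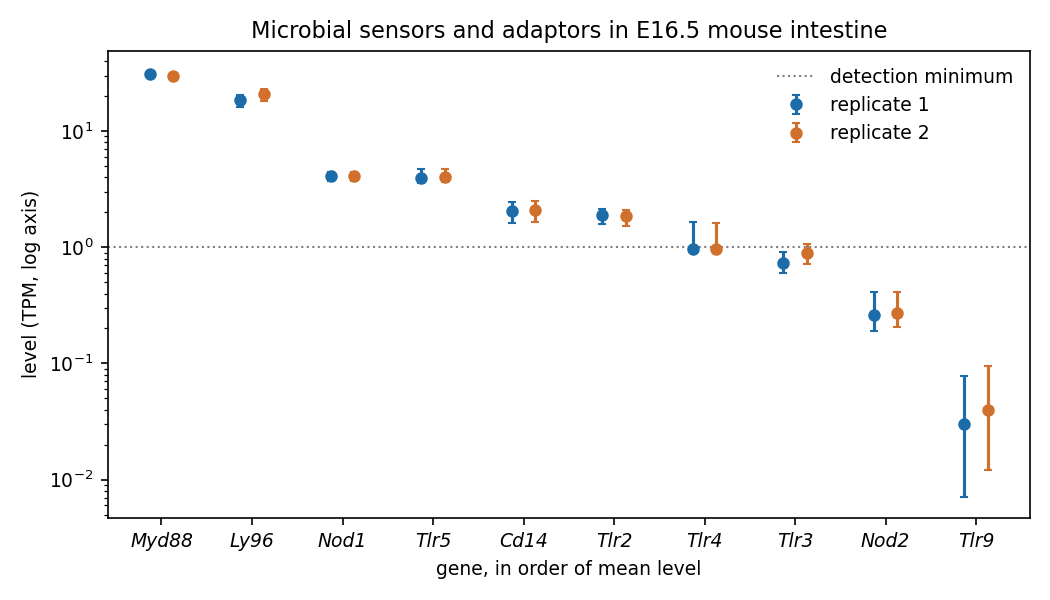
Level of each of the 10 genes in TPM on a log axis, with replicate 1 and replicate 2 as points and the deposited TPM interval of each library as a bar; the dotted line marks a TPM of 1. Levels ran from about 30 TPM for Myd88 (31.06 and 29.85) to 0.03 and 0.04 TPM for Tlr9, and the libraries overlapped for every gene.

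Myd88 is the adaptor that links most Toll-like receptors and the interleukin-1 receptor family to the Irak kinases. It lies on mm10 chromosome 9, from 119335934 to 119341411 on the minus strand (ENSMUSG00000032508.8). Its level was 31.06 TPM in replicate 1 and 29.85 TPM in replicate 2, from 1711.66 and 1591 expected counts. It was the highest of the 10 genes in both libraries, and the deposited intervals, 29.2 to 32.3 TPM in replicate 1 and 28.0 to 31.2 TPM in replicate 2, overlapped. Its annotated exons share 290 bases with those of Acaa1a, a peroxisomal enzyme gene on the opposite strand, which stood at 98.98 TPM and 97.28 TPM. The labels do not say whether the libraries kept strand, so reads from these shared bases may not be separable.

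The 250 bases before the RefSeq start site of Myd88 are shown because this is the most abundant of the 10 genes, at chr9:119340019-119340268 on the minus strand of GRCm38.p6.
Myd88: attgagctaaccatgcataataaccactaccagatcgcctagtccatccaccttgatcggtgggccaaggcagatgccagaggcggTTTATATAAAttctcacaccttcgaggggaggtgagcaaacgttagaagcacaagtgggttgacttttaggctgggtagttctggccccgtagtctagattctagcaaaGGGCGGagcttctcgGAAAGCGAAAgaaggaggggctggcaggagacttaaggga
Capitals mark matches, on either strand, to 4 motifs that were searched in all windows: the GC box GGGCGG, the TATA box TATAAA, the interferon element core, which is GAAA, any 2 bases and GAAA again, and the kappa B consensus. The Myd88 window held a GC box match at 55 to 50 bases before the start, an interferon element match at 40 to 31 bases, and TATAAA on both strands in an overlapping pair between 164 and 155 bases. Of 32851 windows of the same length, 32.7% held a GC box match, 12.4% a TATA box match, 2.98% an interferon element match and 7.25% a kappa B match. The RefSeq start lies inside an exon of Myd88-201, and the nearest annotated start, 16 bases away, is that of the retained-intron transcript Myd88-203, which held 2.40% and 0.97% of Myd88. The whole window lies inside the annotated span of Myd88, which on the minus strand begins at 119341411, so it is not sequence upstream of the gene. None of the Myd88 matches lies in an annotated exon of the gene. Such matches describe letters and do not show binding.

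The lipopolysaccharide receptor was unevenly represented. Lipopolysaccharide is handed to Tlr4 by the surface or soluble protein Cd14, and Ly96, also called MD-2, is the subunit of the Tlr4 complex that holds the lipid. Ly96 (chromosome 1, 16688051 to 16709611, plus strand) stood at 18.40 TPM in replicate 1 and 20.71 TPM in replicate 2, from 289 and 314 counts. Tlr4 (chromosome 4, 66827584 to 66930284, plus strand) stood at 0.96 and 0.97 TPM, from 111 and 110 counts. Ly96 was thus above its receptor in both libraries, in TPM and in counts.

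Ratios between genes are on the log2 scale of TPM + 0.1, except that of Tlr3 to Tlr9, and those of low genes depend on this added value. The SD of a ratio is the spread of 2 libraries and can lie well below the counting error of genes with few reads. Tlr4 stood below Ly96 by a log2 ratio of -4.20 ± 0.11, so Ly96 was 18.4-fold higher, but the log2 ratio was only -1.41 in library-scaled counts without length and -3.38 with 1 TPM added. Cd14 (chromosome 18, 36725067 to 36726798, minus strand) stood at 2.05 TPM and 2.09 TPM, from 89 and 88 counts. Its level was 2.04-fold that of Tlr4 (log2 1.03 ± 0.0092), and Ly96 was 9.04-fold above Cd14. The log2 ratio of Cd14 to Ly96 was -3.18 ± 0.10 in TPM and -1.72 without length. The ratio of Cd14 to Tlr4 rests on length correction, since Cd14 had fewer reads than Tlr4, and in library-scaled counts without length it turned to log2 -0.31. The deposited intervals of Cd14 and Tlr4 overlapped narrowly in replicate 1, at 1.627 to 2.467 TPM for Cd14 and 0.896 to 1.655 TPM for Tlr4. In replicate 2 they did not overlap, at 1.645 to 2.499 TPM for Cd14 and 0.888 to 1.612 TPM for Tlr4.

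Tlr4 sat at the detection minimum. The deposited tables also hold a posterior mean TPM, a second estimate that averages over the possible assignments of reads, and it read 1.25 and 1.23 for Tlr4. By that estimate 7 of the 10 genes reached a TPM of 1 in both libraries. The short noncoding transcripts Tlr4-203 and Tlr4-204 had 0 counts in both libraries, yet held 11.6% and 11.9% of the posterior mean of Tlr4 in replicate 1.

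Among the other surface receptors, Tlr5 was the highest. Tlr5 (chromosome 1, 182954788 to 182976044, plus strand), the receptor of bacterial flagellin, stood at 3.96 TPM in replicate 1 and 4.05 TPM in replicate 2, from 312 and 323 counts. Tlr2 (chromosome 3, 83836272 to 83841767, minus strand), which recognises bacterial lipoproteins together with Tlr1 or Tlr6, stood at 1.88 TPM and 1.85 TPM, from 161 and 154 counts. Tlr5 was therefore above both Tlr2 and Tlr4, and the libraries did not overlap between these genes.

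Tlr4 stood below Tlr5 by a log2 ratio of -1.95 ± 0.013, which is 3.85-fold. Tlr2 was 1.85-fold above Tlr4 (log2 0.88 ± 0.025), but their deposited intervals overlapped. The partners of Tlr2 were lower, with Tlr1 at 0.76 and 0.93 TPM and Tlr6 at 0.65 and 0.52 TPM. Tlr2 was 2.09-fold above Tlr1 and 2.88-fold above Tlr6. Tlr1 and Tlr6 are similar in sequence, and their counts were not whole, at 57.41 and 68.09 for Tlr1, so the split of reads between them is uncertain.

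Both endosomal receptors were under 1 TPM. Tlr3 (chromosome 8, 45395665 to 45411080, minus strand), which binds double-stranded RNA, stood at 0.74 TPM in replicate 1 and 0.90 TPM in replicate 2, from 91 and 102 counts. Its annotated exons share 381 bases with the antisense gene Gm45542, for which no level is given here. Tlr9 (chromosome 9, 106222598 to 106226883, plus strand), which binds unmethylated CpG DNA, had only 3 and 4 counts, or 0.03 and 0.04 TPM. The exact 95% Poisson intervals of these counts were 0.62 to 8.77 in replicate 1 and 1.09 to 10.24 in replicate 2. Tlr9 was thus close to the limit of 3 counts that a count of 0 allows.

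Per length and summed over both libraries, Tlr3 had 193 counts and Tlr9 had 7, a ratio of 22.9 with an exact binomial 95% interval of 10.9 to 57.7. On the scale of TPM + 0.1 the ratio was 6.79, since the added value exceeds the level of Tlr9. Such intervals describe counting error alone, because these reads carry no molecular identifiers and need not be independent molecules. Tlr3 in turn stood below Myd88 by a log2 ratio of -5.06 ± 0.22. Ticam1, the adaptor that Tlr3 uses, stood at 14.04 TPM and 16.51 TPM, from 1195 and 1365 counts. Ticam1 was below Myd88 by a log2 ratio of -0.995 ± 0.205, or 1.99-fold.

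The window before the start site of Tlr9 is shown because this gene had the fewest reads, at chr9:106222348-106222597 on the plus strand.
Tlr9: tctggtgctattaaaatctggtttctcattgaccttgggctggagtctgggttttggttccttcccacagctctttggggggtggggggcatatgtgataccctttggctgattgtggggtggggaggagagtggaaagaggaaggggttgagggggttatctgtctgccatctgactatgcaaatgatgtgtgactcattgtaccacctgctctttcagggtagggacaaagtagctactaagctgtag
It held no match to the 4 motifs, so no letters are in capitals, and it had 0 CpG dinucleotides at a GC content of 50.4%. Over all 32851 windows the median was 6 CpG dinucleotides and a GC content of 52.4%, and 7.87% of windows had none. RefSeq windows were matched for 7 of the 10 genes, 8 windows in all, the exceptions being Tlr4, Cd14 and Ly96. The 8 windows ranged from 0 CpG dinucleotides for Tlr9 to 12 for the outer start of Nod1, and GC content ranged from 48.0% to 62.8%. GC box matches were found for Myd88, Tlr2, Tlr5, Nod2 and the outer start of Nod1, and kappa B matches for Tlr2 and Tlr3. Some lie inside annotated exons and not before every start: the kappa B match of Tlr3 in exons of Tlr3-201 and Tlr3-202, both GC box matches of Tlr2 in Tlr2-201, and 1 of 3 of Nod2 in Nod2-203.

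Of the cytosolic peptidoglycan sensors, Nod1 was clearly above Nod2. Nod1 (chromosome 6, 54923949 to 54972612, minus strand), which senses peptidoglycan fragments that carry diaminopimelic acid, stood at 4.12 TPM in both libraries, from 499 and 480 counts. Nod2 (chromosome 8, 88647315 to 88688474, plus strand), which senses muramyl dipeptide and is known from Paneth cells and myeloid cells, stood at 0.26 TPM in replicate 1 and 0.27 TPM in replicate 2, from 31 and 33 counts. The libraries did not overlap between the genes, and Nod1 was 11.6-fold above Nod2 (log2 3.53 ± 0.028). With 1 TPM added in place of 0.1 this log2 ratio was 2.02, and with 0.01 it was 3.91.

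Ripk2, the kinase that both receptors use, stood at 3.31 TPM and 3.48 TPM, from 253 and 258 counts. Nod1 was 1.21-fold above Ripk2 (log2 0.27 ± 0.050), but the deposited intervals overlapped. Nod2 was below Ripk2 by a log2 ratio of -3.26 ± 0.022, or -1.80 with 1 TPM added. Nod1 and its kinase were thus close in level, and Nod2 was well below both.

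Nod1 reads were divided between transcripts that begin at different start sites. Nod1-201 starts at 54972612 and Nod1-202 at 54971661, 951 bases further in, and in GENCODE M21 they share 11 exons and the same coding sequence and differ only in exon 1, of 344 and 93 bases. The deposited lengths, 4322 and 4071 bases, differ by the same 251 bases as these first exons. Nod1-201 took 56.6% of Nod1 in replicate 1 and 43.0% in replicate 2, so the major transcript was not the same in both libraries. The TPM intervals of Nod1-201, 1.58 to 3.21 in replicate 1 and 0.97 to 2.55 in replicate 2, overlapped each other and those of Nod1-202, 0.85 to 2.55 and 1.44 to 3.15. Which start site was used more was not detectable at this depth.

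The 250 bases before each start site of Nod1 are shown for comparison, on the minus strand of GRCm38.p6 at chr6:54972613-54972862 for Nod1-201 and chr6:54971662-54971911 for Nod1-202, with a GC box match in capitals.
Nod1-201: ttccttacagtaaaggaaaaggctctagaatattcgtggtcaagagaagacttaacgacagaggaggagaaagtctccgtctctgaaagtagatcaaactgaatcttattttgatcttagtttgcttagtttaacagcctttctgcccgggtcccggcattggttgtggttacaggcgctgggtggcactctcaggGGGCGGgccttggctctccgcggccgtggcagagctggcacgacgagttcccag
Nod1-202: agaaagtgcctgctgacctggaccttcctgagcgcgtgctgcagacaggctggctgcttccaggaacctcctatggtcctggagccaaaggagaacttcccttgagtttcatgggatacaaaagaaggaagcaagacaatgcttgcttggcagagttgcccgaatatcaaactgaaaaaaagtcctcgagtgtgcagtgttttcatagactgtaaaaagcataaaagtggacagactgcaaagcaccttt
The window of Nod1-201 held 12 CpG dinucleotides and a GC box match at 54 to 49 bases before the start. The window of Nod1-202 held 4 CpG dinucleotides and no match to the 4 motifs.

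Several transcripts are annotated for 7 of the 10 genes, and the major transcript was the same in both libraries for 5. The exceptions were Nod1 and Tlr3. Among protein-coding genes with at least 2 transcripts and 10 counts in both libraries, 10.1% of 10936 had a different major transcript. Myd88-201 took 97.60% and 99.03% of Myd88, Ly96-201 took 97.5% and 95.7% of Ly96, and Tlr4-201 took 97.3% and 100% of Tlr4. In these 3 genes a coding transcript held nearly all assigned reads, although the posterior mean share of Tlr4-201 was lower, at 72.7% and 76.9%.

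Tlr5-201, which encodes the receptor, took 81.8% of Tlr5 in replicate 1 and 84.7% in replicate 2. Most of the rest went to Tlr5-203, a transcript annotated without a coding sequence, at 18.2% and 13.8%, from 16.73 and 12.57 counts. Tlr3-201 took 81.9% of Tlr3 in replicate 1 and 34.8% in replicate 2, with Tlr3-202 holding the rest. Their coding sequences are the same in GENCODE M21, although the lengths of both transcripts differ between that release and the deposited tables, and the TPM intervals of Tlr3-201, 0.12 to 0.76 and 0.07 to 0.71, overlapped almost in full. Nod2-203 took 73.0% and 85.6% of Nod2, but its posterior mean share was 25.1% and 28.4%, so the 31 and 33 reads of Nod2 did not settle its transcript.

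**Figure D2:**
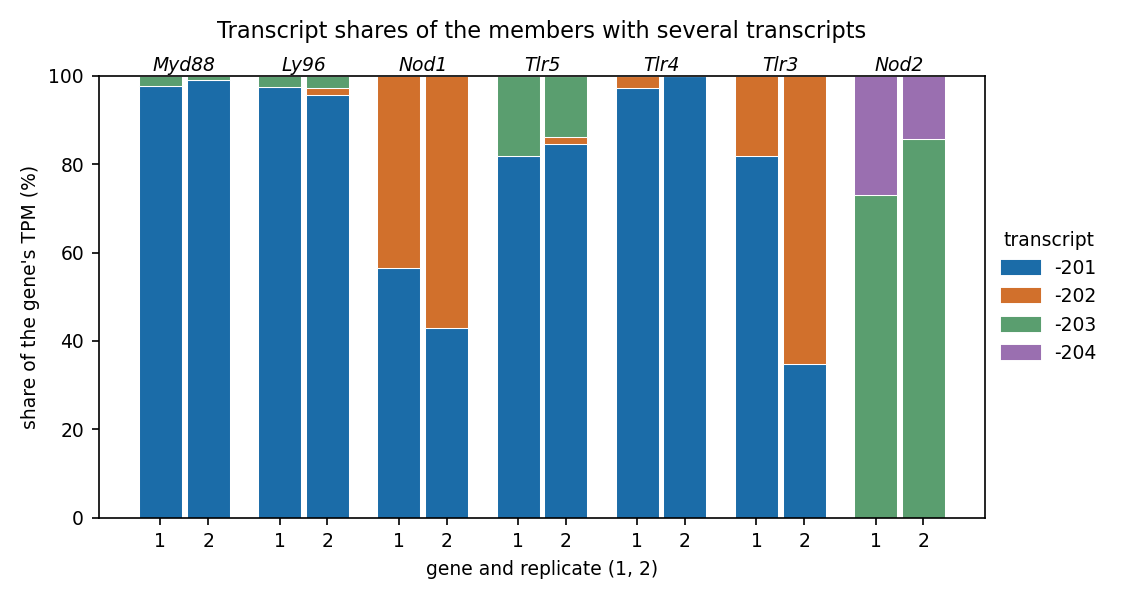
Share of each gene's TPM, in percent, held by its annotated transcripts in replicate 1 and replicate 2, for the 7 genes with more than 1 transcript, in order of level; colours give the transcript number. Myd88, Ly96, Tlr4 and Tlr5 were led by transcript 201 in both libraries, whereas the shares of Nod1-201 (56.6% and 43.0%) and Tlr3-201 (81.9% and 34.8%) lay on different sides of the middle.

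Ordered by mean level, the 10 genes ran Myd88, Ly96, Nod1, Tlr5, Cd14, Tlr2, Tlr4, Tlr3, Nod2 and Tlr9. Neighbours were called apart when the deposited intervals of both libraries did not overlap, and 5 of 9 neighbouring pairs were. Myd88 was apart from Ly96, Ly96 from Nod1, Tlr5 from Cd14, Tlr3 from Nod2 and Nod2 from Tlr9. Not apart were Nod1 and Tlr5, Cd14 and Tlr2, Tlr2 and Tlr4, and Tlr4 and Tlr3. The order thus falls into Myd88, then Ly96, then Nod1 with Tlr5, then a chain from Cd14 to Tlr3, then Nod2, then Tlr9.

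Transcripts of the genes around the receptors varied in level from list to list. The lists below, 96 genes in 11 lists, were chosen with earlier results of these data known, and 67 of the 96 genes, or 69.8%, were detected, near the 62.0% of all protein-coding genes. A list's median was taken in each library and is given as the mean ± SD of those medians. Receptor chaperones and trafficking genes were detected in 6 of 6 cases at a median of 45.5 ± 1.78 TPM, led by Hsp90b1 at 632 ± 12.1 TPM, the endoplasmic reticulum chaperone that folds Toll-like receptors. Lrrc59 stood at 218 ± 0.78 TPM, Cnpy3, the cochaperone of Hsp90b1, at 63.9 ± 1.20, and Cnpy4 at 27.2 ± 2.35. Unc93b1, which carries the nucleic acid receptors to endosomes, stood at 22.8 ± 0.93 TPM, well above Tlr3 and Tlr9. Tmed7 read 5.68 TPM in replicate 1 and 15.15 TPM in replicate 2.

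Transcripts of signalling genes were detected as well. All 12 kinases and ligases were detected at a median of 10.9 ± 0.59 TPM, with Irak1 at 43.6 ± 0.51 TPM, the kinase Tbk1 at 27.1 ± 1.48 and Tab1 at 23.8 ± 0.98. The lowest were Traf3, at 3.39 TPM in both libraries, and Ripk2, with nearly the same mean. All 8 NF-kB and IRF genes were detected at a median of 26.03 ± 0.19 TPM, with Irf3 at 73.9 ± 6.94 TPM, the NF-kB subunit Rela at 35.8 ± 1.02, the kinase Ikbkb at 34.7 ± 0.099 and Irf5 lowest at 6.88 ± 0.50. Of the 4 other adaptors, 3 were detected: Ticam1, Tirap at 11.1 ± 0.71 TPM, which bridges Tlr2 and Tlr4 to Myd88, and Sarm1 at 1.61 ± 0.32. Ticam2, which bridges Tlr4 to Ticam1, stood at 0.83 and 0.81 TPM.

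Inhibitors were detected in 7 of 9 cases at a median of 3.79 ± 0.16 TPM. Nfkbia, which holds NF-kB in the cytoplasm, stood at 49.5 ± 1.31 TPM, Tollip, which restrains Irak1, at 46.1 ± 2.26, and Sigirr, an inhibitory receptor of the family, at 19.8 ± 1.58. The lowest was Il1rl1 at 0.375 ± 0.035 TPM. Nfkbia, Tollip and Sigirr, the highest of the list, were above each of the 5 Toll-like receptors among the 10 genes in both libraries. So was Cyld, at a mean of 6.325 TPM. The other inhibitors were below Tlr5, whose mean was 4.005 TPM, in both libraries. Their means were 3.79 TPM for Tnfaip3, 2.135 for Cd300a, 1.25 for Zc3h12a, 1.07 for Irak3 and 0.375 for Il1rl1. The list median was also below Tlr5.

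**Figure D3:**
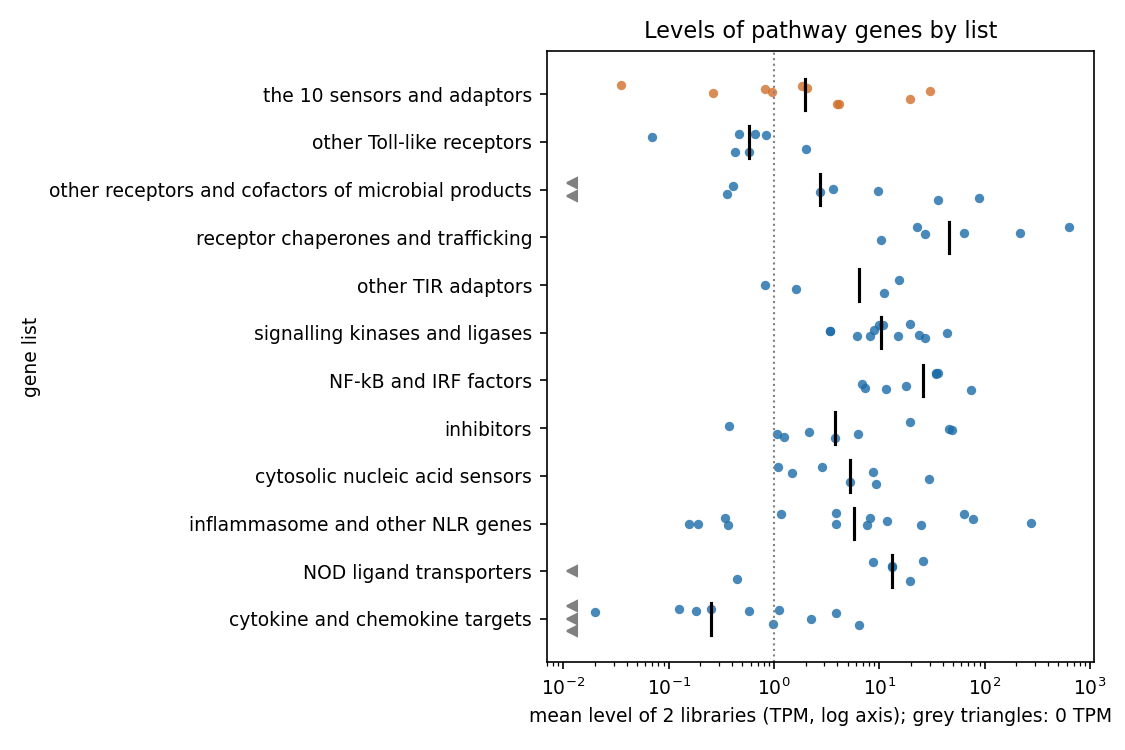
Mean level of the 2 libraries in TPM on a log axis for each gene of the 10 sensors and adaptors (orange) and of 11 lists of pathway genes (blue); black bars are the medians of these means, grey triangles genes at 0 TPM, and the dotted line a TPM of 1. Chaperones and NF-kB and IRF factors lay mostly above 10 TPM, whereas other Toll-like receptors and cytokine and chemokine targets lay mostly under 1 TPM.

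The remaining Toll-like receptors were mostly low, with 1 of 7 detected and a median of 0.56 ± 0.014 TPM. Tlr12, known in mice as a receptor of the parasite protein profilin, was the one detected, at 1.90 TPM and 2.17 TPM, from 172 and 191 counts. Tlr13, which binds bacterial ribosomal RNA in mice, stood at 0.67 ± 0.13 TPM, and Tlr11 was lowest at 0.070 ± 0.028. Other receptors of microbial products were detected in 5 of 9 cases at a median of 2.75 ± 0.58 TPM. Pglyrp1, a peptidoglycan-binding protein, reached 87.9 ± 2.87 TPM, the lipid receptor Cd36 36.04 ± 8.29 and Ly86, the partner of Cd180, 9.81 ± 0.91. Pglyrp3 and Pglyrp4 had 0 counts, and such a count allows up to 3 in a library.

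Inflammasome and other NLR genes were detected in 10 of 14 cases at a median of 5.57 ± 0.54 TPM. Pycard, the inflammasome adaptor, stood at 278 ± 6.87 TPM, the pore-forming Gsdmd at 77.4 ± 5.59 and Nlrp6, an NLR protein of intestinal epithelium, at 64.4 ± 5.69. Nlrp1a was lowest at 0.155 ± 0.021 TPM. Nlrp6 was therefore above Nod1 at 4.12 TPM and Nod2 at 0.265 ± 0.0071 TPM. Cytosolic nucleic acid sensors were detected in 6 of 7 cases at a median of 5.28 ± 0.23 TPM, with the adaptor Mavs at 29.9 ± 3.71 TPM, Tmem173, also called STING, at 9.41 ± 0.45, and the RNA helicase Ddx58, also called RIG-I, at 8.80 ± 0.52. Zbp1 read 0.56 and 1.61 TPM.

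Transporters that can carry NOD ligands into the cytosol, with the autophagy protein Atg16l1 that binds both NOD receptors, were detected in 5 of 7 cases at a median of 12.2 ± 2.02 TPM. Slc46a3 stood at 18.29 TPM in replicate 1 and 33.86 TPM in replicate 2, Atg16l1 at 19.8 ± 1.74, and the peptide transporter Slc15a1 at 10.73 and 15.90. Slc46a2 had no count. The typical outputs of these pathways were low, with 4 of 13 cytokine and chemokine targets detected and a median of 0.25 ± 0.042 TPM. The chemokines Ccl2, Ccl20 and Cxcl10 were highest, at 6.40 ± 0.98, 3.89 ± 0.66 and 2.23 ± 0.78 TPM. Il10, Il12b and Ifnb1 had no count in either library.

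No difference between the pools was detected for the 10 genes. The log2 ratio of replicate 1 to replicate 2 was largest for Tlr3 at -0.25, followed by Ly96 at -0.17, and the other 8 lay between -0.11 for Tlr9 and 0.06 for Myd88. The deposited TPM intervals overlapped in 10 of 10 genes, while they were apart in 20.0% of 17672 protein-coding genes with any count. Over the 9 genes with at least 20 counts in sum, the chi-square between the libraries' counts averaged 0.651 per gene, and over 18089 genes it averaged 20.6 with a median of 2.5. Genes of low count have wide intervals, so the 10 genes had little room to be called apart. The chi-square of a given ratio also grows with count, and neither comparison was matched for count. A gene was called different when the libraries lay 2-fold apart with a mean count of at least 100 and separate intervals. This held for 0 of the 6 genes with enough counts, and for 0.807% of 12885 protein-coding genes, with 0.349% higher and 0.458% lower in replicate 1. The 0 of 6 is near that share.

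Libraries differed more in some genes around the pathway. Tmed7, which moves Tlr4 out of the endoplasmic reticulum, and Map3k7, the kinase TAK1, were called lower in replicate 1, Map3k7 at 4.5 TPM in replicate 1 and 11.72 TPM in replicate 2. The call of Tmed7 rests on length correction, since its expected counts, 1110.94 and 2108, were less than 2-fold apart. Neutrophil markers were higher in replicate 1 in 6 of 6 genes, with a median log2 ratio of 1.27 and a summed level of 75.1 TPM in replicate 1 and 32.5 TPM in replicate 2. S100a8, S100a9, Mpo and Ngp were called higher in replicate 1. Macrophage and myeloid markers had a median log2 ratio of 0.02, with a summed level of 330.8 and 319.3 TPM. The sum of the 10 sensors and adaptors was 63.5 TPM in replicate 1 and 64.9 TPM in replicate 2. Most of it came from Myd88 (31.06 and 29.85 TPM) and Ly96 (18.4 and 20.71 TPM), so it says little about the receptors. The part of any cell type in these levels was not tested.

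**Figure D4:**
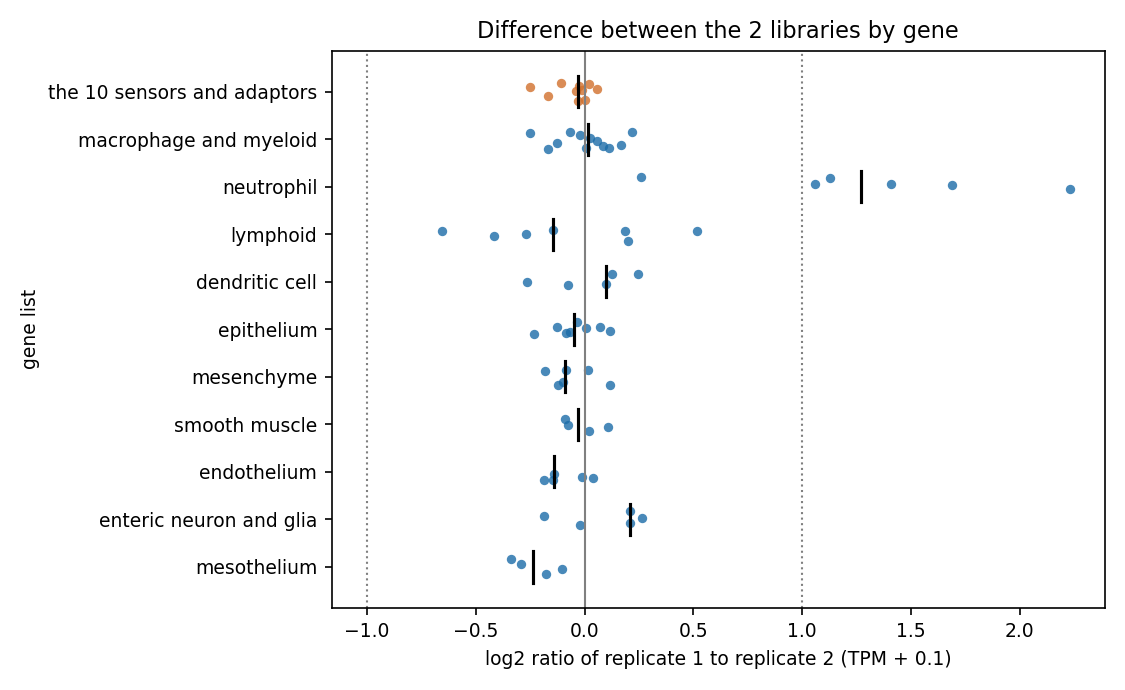
Log2 ratio of replicate 1 to replicate 2, in TPM + 0.1, for each of the 10 sensors and adaptors (orange) and of 10 lists of cell type markers (blue); black bars are list medians and dotted lines mark 2-fold. The 10 genes lay between -0.25 and 0.06, and the neutrophil markers had a median of 1.27.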

How the data were processed

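Gene and transcript tables of 2 libraries of 1 group were used. Reads were assigned to GENCODE M4 transcripts on mm10, per the text deposited beside the tables. Aligner and quantifier names were not given in the sources used here. Expected counts, as deposited, estimate reads per feature without normalisation. The deposited TPM values divide them by effective length (length minus 99) and scale each library to the same total. A transcript's part of its gene's TPM is a deposited percent. The level of the deposited TPM intervals is not stated. Symbols, coordinates and transcript structures came from GENCODE M21 on the same build, matched by Ensembl identifier. All 96 pathway genes matched, Mb21d1 through its newer symbol Cgas.

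With 1 group of 2 libraries no test between groups exists, and an exact sign-flip test of 2 libraries cannot go below 0.5, so p-values are left out. The libraries' counts differed by more than sampling noise over all genes, with a mean chi-square of 20.6 per gene and a median of 2.5. They were kept as 2 replicates, although this excess does not tell technical from biological spread. Scaling alternatives used edgeR 4.0.16 and DESeq2 1.42.0 under R 4.3.3, after expected counts had been rounded. Other steps used Python 3.11.15, pandas 2.3.3 and scipy 1.17.1. The rule for differing genes was run on simulated counts with changes well above 2-fold and with Poisson intervals. That run does not show how the rule behaves near 2-fold or with the deposited intervals. Genes named by rule are the 10, the 13 fixed pairs, and of each list the 3 highest and the lowest, or all of 6 or fewer. Pglyrp3, Map3k7, Il10 and Il12b were named outside this rule, after their values were seen. So were the inhibitors Cyld, Tnfaip3, Cd300a, Zc3h12a and Irak3. Acaa1a and Gm45542 were named for their exon overlap. Marker lists are given by counts, medians and sums, and only the neutrophil markers that differed between libraries are named. The members, lists and pairs were chosen with earlier results of these data known. Promoter windows came from RefSeq on GRCm38.p6.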

Additional observations from a re-analysis of the deposited data

How the results depend on the processing

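With a minimum TPM of 5 in both libraries, 2 of the 10 genes were detected (Myd88 and Ly96), and 0 other Toll-like receptors, 3 other receptors of microbial products, 4 inhibitors and 1 cytokine target. With a minimum of 0.5, 4 other Toll-like receptors were. The number of the 10 genes detected was 8 at a minimum TPM of 0.5 and 9 at 10 counts in both libraries. In library-scaled counts without length, the ratio of Cd14 to Tlr4 turned to log2 -0.31, and that of Ticam1 to Myd88 was -0.37 and no longer above 3 SD. Ly96 was also far less above Tlr4 on that scale, at -1.41 for Tlr4 to Ly96. With 1 TPM added in place of 0.1, the ratio of Nod1 to Nod2 was 2.02, of Tlr3 to Myd88 -4.11 and of Tlr2 to Tlr6 0.86 (with 0.1, 3.53, -5.06 and 1.53). All 13 fixed pairs lay apart by the rule of 3 SD, and 10 did by deposited intervals, an alternative chosen after seeing the data. Neighbours in the order that lay apart numbered 5 by deposited intervals, 6 by exact Poisson intervals and 7 by 3 SD. Genes apart between the libraries numbered 104, against 185 with no count minimum and 293 at 1.5-fold. Neither changed the count of 0 for the 10 genes. Small differences were not detectable for those with few reads, such as Tlr9 and Nod2. Posterior means moved the share of Nod2-203 to 26.7% and that of Tlr4-201 to 74.8%. No paired analysis was possible because both libraries belong to 1 group.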
